A study of Homo sapiens with 4 samples.

Results

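The nuclear genes that encode the subunits of respiratory complexes III and IV and of ATP synthase were followed in ES2 cells, an established ovarian cancer (OCa) line, after treatment with EC359. EC359 is a small molecule inhibitor of the leukemia inhibitory factor receptor (LIFR). ES2 cells received EC359 at 10 nM or vehicle (0.1% DMSO) for 12 h, and RNA was sequenced from 2 libraries per treatment. The genes were picked by a rule on their names, which was set with earlier results of these data known. The rule took CYC1 and all symbols that start with UQCR, ATP5, COX4I, COX5, COX6A, COX6B, COX6C, COX7A, COX7B, COX7C or COX8. Of 23228 gene symbols, 47 met this rule and 39 had at least 10 counts in each library, with 10 in complex III, 11 in complex IV and 18 under ATP synthase. All 39 were among the 12706 genes with enough counts to be tested. Counts on genes totalled 25603886 and 25572494 in the vehicle libraries and 31707553 and 29914788 in the EC359 libraries. Both treatments used a single cell line at 1 dose and 1 time, and RNA was measured, not protein or respiration.

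Complex III passes electrons from ubiquinol to cytochrome c and pumps protons out of the mitochondrial matrix. Complex IV, cytochrome c oxidase, passes these electrons to oxygen. ATP synthase lets the protons back through a ring of c subunits in the membrane, and the turning ring drives ATP formation in the F1 head. Each complex is built from nuclear and mitochondrial genes, and the genes encoded by mitochondrial DNA were not analysed here. In bulk RNA, fewer cells with a transcript and less of it per cell cannot be told apart.

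The ES2 label was read against marker genes. The mesenchymal genes VIM, FN1 and CDH2 were abundant, with VIM at 4829 to 5542 CPM (counts per 1e6 counts on genes). VIM had a log2 fold change of -0.17 ± 0.030 (SE), which DESeq2, the exact test and voom called lower at an adjusted p under 0.01 and edgeR's quasi-likelihood test did not, and its part in the results was not tested. KRT18 stood at 246 to 277 CPM and KRT8 at 21.7 to 24.3 CPM, whereas EPCAM, CDH1 and NAPSA had at most 2 counts in any library and MUC16 had 0. Few counts were also found for KRT19, PAX8 and WT1, with KRT19 at 5 to 23, PAX8 at 24 to 41 and WT1 at 76 to 119. All 5 of the 10 markers of this list that could be tested had fitted changes above 0 with EC359 and none passed an adjusted p of 0.01 (edgeR). Blood cell markers had at most 6 counts. Of the endothelial markers, PECAM1 and VWF had at most 2 counts and CDH5 stood at 122 to 130 CPM in all libraries.

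EC359 treated cells had slightly less RNA of most of these genes. The fitted log2 fold change was below 0 for 36 of the 39 genes, with a median of -0.12, which corresponds to a change of -7.75%. Over all genes tested, the median was 0.0029 and 49.0% were below 0. Of these genes, 2 fell at an adjusted p under 0.01, both of them genes for subunit c of ATP synthase (edgeR quasi-likelihood test with Benjamini-Hochberg adjustment over all genes tested). No gene of these complexes rose at this threshold in edgeR, nor with DESeq2, edgeR's exact test or limma voom. Over all genes tested, 0.795% fell and 0.299% rose, or 1.09% in either direction.

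Looser thresholds and the order of the libraries describe the same fit and counts in other ways, so their direction is not independent of it. At an adjusted p under 0.05, 5 of the 39 genes fell, which added ATP5B, COX7C and COX7A2, and 0 rose, where 2.64% and 1.68% of all genes tested did. By an unadjusted p under 0.05, 23 of the 39 lay lower and 1 higher, against 11.0% and 10.7% of all genes tested. Both EC359 libraries lay below both vehicle libraries in 29 of the 39 genes and above them in 1, while 25.4% and 26.1% of all genes tested were separated in these ways. In the remaining 9 genes the libraries of the treatments overlapped.

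**Figure D1:**
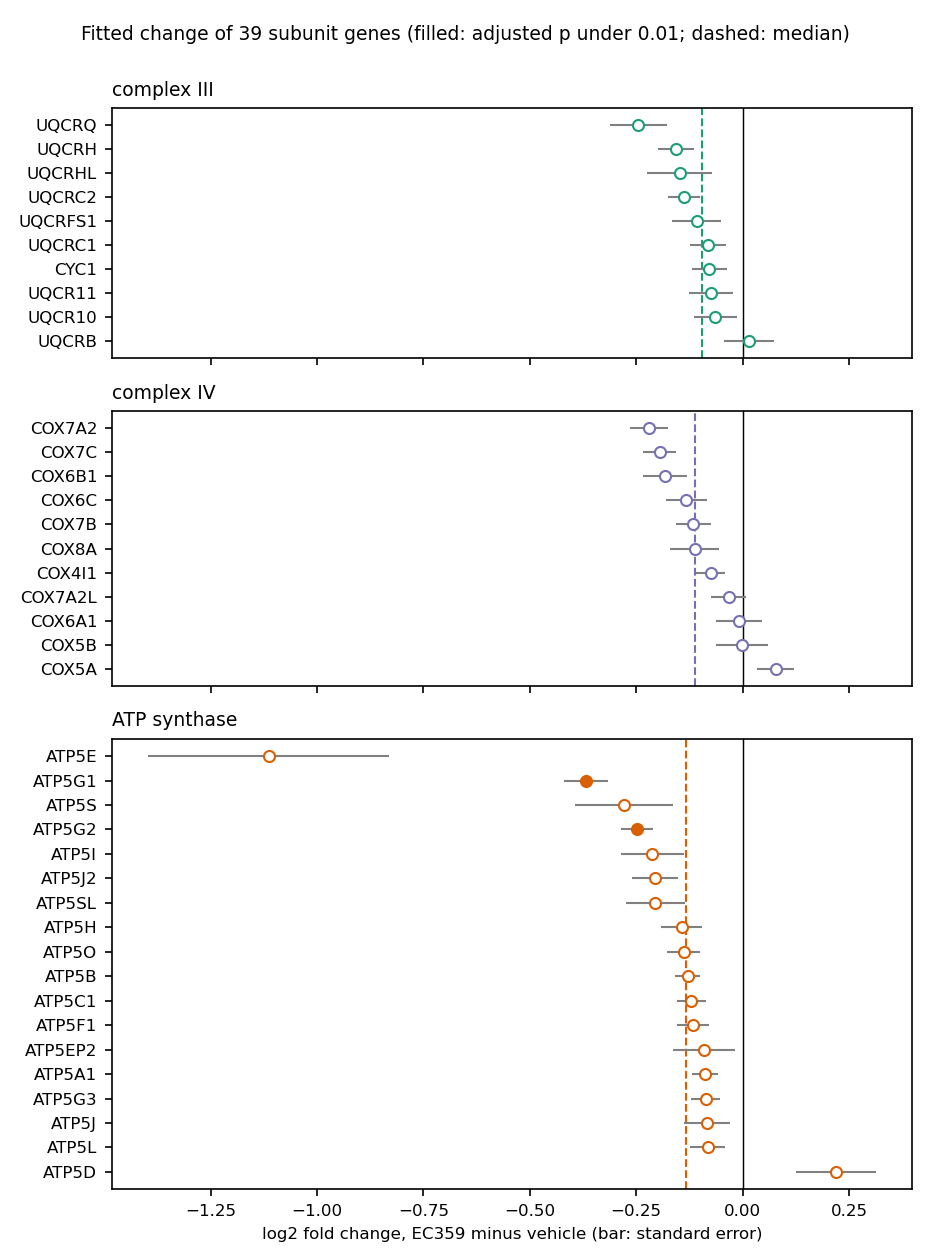
Fitted log2 fold change with EC359 (x axis) of each of the 39 genes (y axis), by complex, with its standard error as a bar. Filled points are the 2 genes with an adjusted p under 0.01, the dashed line is the median of the complex, and 36 of the 39 points lie left of 0.

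The summed raw counts gave the share of each complex in all gene counts. Abundant genes weigh most in these sums. In vehicle replicate 1, ATP5B held 26737 and ATP5A1 11763 of the 78809 counts under ATP synthase. The 39 genes took 0.549% and 0.551% of all gene counts in the vehicle libraries and 0.517% and 0.516% in the EC359 libraries. For each library, the 95% Wilson interval was narrower than this difference, with 0.548% to 0.554% in vehicle replicate 2 and 0.514% to 0.519% in EC359 replicate 1. Complex III took 0.108% in each vehicle library and 0.102% and 0.103% in the EC359 libraries. Complex IV took 0.133% and 0.134% with vehicle and 0.126% and 0.128% with EC359, and ATP synthase took 0.308% and 0.309% with vehicle and 0.289% and 0.285% with EC359. In each complex both EC359 libraries were below both vehicle libraries. An exact two-sided permutation test of 2 libraries against 2 cannot go below p = 0.333, which is the value each of these sums gave. The intervals cover counting error only.

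Expression per transcript length differed far more between the genes than between the treatments. Without ATP5E, the vehicle mean in RPKM (CPM per 1000 bases of transcript) ran from 4.43 to 603, with a median of 163. The lowest value was that of ATP5S, a symbol that does not stand for a subunit. ATP5B, the catalytic beta subunit of the F1 head, had the highest level at 603 ± 12.9 RPKM (SD, n = 2) with vehicle and 560 ± 8.27 with EC359. COX4I1, a nuclear subunit of complex IV, followed at 446 ± 8.36 and 430 ± 10.8 RPKM. UQCRFS1, the Rieske iron-sulfur protein, was at 12.8 ± 0.235 and 12.1 ± 0.253 RPKM, for a transcript of 3086 bases. These levels rest on 1 annotated transcript length per gene, so they order genes only roughly.

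ATP synthase showed the lowest median of the complexes. Of its 18 genes, 17 had a fitted change below 0, and the median log2 fold change was -0.13. In 15, both EC359 libraries lay below both vehicle libraries, as they did in 25.4% of all genes tested. Of these 18 symbols, 3 do not stand for subunits. ATP5S and ATP5SL now carry the names DMAC2L and DMAC2, and ATP5EP2 is a processed pseudogene of the epsilon subunit. Without these 3 and COX7A2L, the ATP synthase median was still -0.13.

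The ring of subunit c held both genes that fell. ATP5G1, ATP5G2 and ATP5G3 are separate genes that encode the same mature subunit c with different mitochondrial import sequences. ATP5G1 (GRCh37 chr17:46970127-46973233, plus strand, identifier ENSG00000159199.14_8, now ATP5MC1) had 2971 and 3215 normalised counts with vehicle and 2324 and 2467 with EC359. Both EC359 libraries lay well below both vehicle libraries. The log2 fold change was -0.37 ± 0.051 (SE), with an adjusted p of 0.00509 from edgeR.

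ATP5G2 (GRCh37 chr12:54026510-54071192, minus strand, identifier ENSG00000135390.21_17, now ATP5MC2) had 4870 and 4808 normalised counts with vehicle and 4166 and 3981 with EC359. The libraries were again separated, and the log2 fold change was -0.25 ± 0.038 (SE), adjusted p = 0.00729 from edgeR. Normalised counts of ATP5G3 (now ATP5MC3) were 6124 and 6100 with vehicle and 5692 and 5823 with EC359. Its libraries did not overlap, but the change of -0.086 ± 0.034 (SE) did not pass the threshold, with an adjusted p of 0.176 from edgeR. Without EC359 replicate 1 or without EC359 replicate 2, neither ATP5G1 nor ATP5G2 passed an adjusted p of 0.01, in fits that called 0 and 2 of all genes. Their log2 fold changes were then -0.33 and -0.41 for ATP5G1 (adjusted p = 0.295 and 0.254 from edgeR) and -0.28 and -0.22 for ATP5G2 (0.231 and 0.302). Without a filter on low counts, the adjusted p was 0.0107 for ATP5G1 and 0.0155 for ATP5G2. ATP5G2 also missed the threshold with total counts (0.0105) and with length trends removed (0.0178).

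Within the summed counts of the 3 genes, the mix moved away from ATP5G1. ATP5G1 held 21.3% and 22.8% of these counts with vehicle and 19.1% and 20.1% with EC359. ATP5G2 held 34.9% and 34.0% with vehicle and 34.2% and 32.4% with EC359, so its libraries overlapped. The share of ATP5G3 was 43.9% and 43.2% with vehicle and 46.7% and 47.5% with EC359, a difference of 3.57 percentage points with both EC359 libraries above both vehicle libraries. The exact two-sided permutation p was 0.333 for ATP5G1 and ATP5G3, the smallest this design allows, and 0.667 for ATP5G2.

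**Figure D2:**
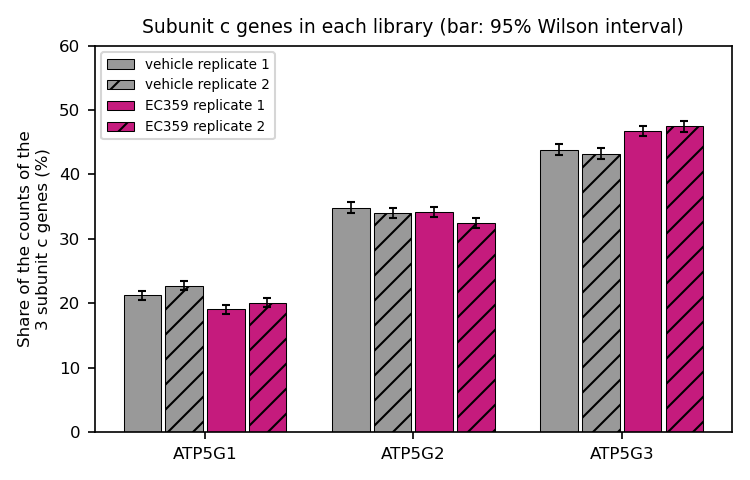
Share of each subunit c gene (x axis) in the summed counts of the 3 genes (y axis, %) in each library, with 95% Wilson intervals for counting error. ATP5G1 was at 21.3% and 22.8% with vehicle and at 19.1% and 20.1% with EC359, and ATP5G3 was at 43.9% and 43.2% against 46.7% and 47.5%.

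In the F1 head and its stalk, 4 of 5 genes were lower and 1 was higher. ATP5B had 29716 and 30624 normalised counts with vehicle and 27922 and 27237 with EC359. The libraries were separated and the log2 fold change was -0.13 ± 0.030 (SE), which missed the threshold with an adjusted p of 0.0411 from edgeR. This change was -0.15 without vehicle replicate 1 and -0.11 without vehicle replicate 2. The alpha subunit, which alternates with beta in the head (ATP5A1), and the gamma subunit of the rotating stalk (ATP5C1) had log2 fold changes of -0.088 and -0.12, with no overlap of libraries.

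ATP5E, the small epsilon subunit of the stalk, had the largest fitted change and the weakest measurement. Its normalised counts were 133 and 71.2 with vehicle and 51.3 and 43.0 with EC359. The vehicle libraries differed from each other by more than the lower of them differed from EC359. The log2 fold change was -1.11 ± 0.28 (SE), with an adjusted p of 0.0546 from edgeR and of 0.00394 from its exact test. The log2 fold change was -0.59 without vehicle replicate 1 and -1.50 without vehicle replicate 2. ATP5E shares its place with the read-through symbol SLMO2-ATP5E, which had 0 counts in all libraries, and reads that fit several genes were left out of the deposited counts. The pseudogene ATP5EP2, of 156 bases, had 910 to 1176 raw counts against 46 to 120 for ATP5E, and its log2 fold change was -0.090.

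ATP5D, the delta subunit beside epsilon in the stalk, was the member with the largest change in the opposite direction. Its normalised counts were 1069 and 1322 with vehicle and 1305 and 1478 with EC359. Vehicle replicate 2 lay above EC359 replicate 1, so the treatments overlapped. The log2 fold change was 0.22 ± 0.094 (SE), with an adjusted p of 0.213 from edgeR. The log2 fold change was 0.072 without vehicle replicate 1, 0.38 without vehicle replicate 2 and 0.13 without EC359 replicate 2. At 69.3% GC, its transcript had the highest GC content of the 39, and with GC trends removed the change was 0.061.

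All 7 genes of the peripheral stalk and the membrane part had fitted changes below 0. The treatments were separated in 6 of them, and 25.4% of all genes tested were separated on this side. Their log2 fold changes ran from -0.21 for ATP5I (subunit e) to -0.082 for ATP5L (subunit g), with a median of -0.14. ATP5J2 (subunit f) was close to the lower end at -0.21, with 1669 and 1689 normalised counts for vehicle and 1508 and 1402 for EC359. Subunit b (ATP5F1), subunit d (ATP5H) and OSCP (ATP5O), which form the stalk that holds the F1 head still, were at -0.12, -0.14 and -0.14. None of the 7 had an adjusted p under 0.05 from edgeR, and the lowest was 0.0637, for ATP5J2. Among 50-base windows of the ATP5O transcript, 61.2% also occurred in transcripts of other annotated genes, and 30.4% did for ATP5F1. Elsewhere in the genome, 0% of the windows of ATP5O and 30.5% of those of ATP5F1 occurred.

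In complex IV, 10 of 11 genes had fitted changes below 0, with a median log2 fold change of -0.11, and none passed an adjusted p of 0.01 (edgeR). With unadjusted p under 0.05, 6 lay lower and 0 higher, against 11.0% and 10.7% of all genes tested. Of the other tools, the exact test called 2 lower (COX7C and COX7A2), where it called 2.62% of all genes tested lower and 1.85% higher. DESeq2 and voom called 0. Both EC359 libraries were below both vehicle libraries in 7 genes and above them in 1, against 25.4% and 26.1% of all genes tested. COX7C, a small membrane subunit, had 4006 and 3887 normalised counts with vehicle and 3415 and 3483 with EC359. Its libraries were clearly apart, and the log2 fold change was -0.19 ± 0.039 (SE), adjusted p = 0.0224 from edgeR. The log2 fold change of COX7C was -0.17 without vehicle replicate 1 and -0.22 without vehicle replicate 2.

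COX7A2 encodes the widely expressed form of subunit 7A. It had 2702 and 2598 normalised counts with vehicle and 2305 and 2245 with EC359. The groups did not overlap, and the log2 fold change was -0.22 ± 0.045 (SE), with an adjusted p of 0.0244 from edgeR. This change was -0.19 without vehicle replicate 1 and -0.25 without vehicle replicate 2. Its relative COX7A2L, which helps join complexes III and IV into a supercomplex, had 2802 and 2775 normalised counts with vehicle and 2741 and 2711 with EC359. These values were also separated, but by only -0.033 ± 0.041 (SE) on the log2 scale, adjusted p = 0.692 from edgeR. Of the counts of both genes, COX7A2 held 49.1% and 48.4% with vehicle and 45.7% and 45.3% with EC359 (exact two-sided permutation p = 0.333, the smallest possible here).

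COX6B1, which joins the monomers of the complex IV dimer, had 2392 and 2209 normalised counts with vehicle and 2060 and 1992 with EC359. Both EC359 values were the lower ones, and the log2 fold change was -0.18 ± 0.052 (SE), adjusted p = 0.0754 from edgeR. This change was -0.13 without vehicle replicate 1 and -0.24 without vehicle replicate 2. COX7B had 3712 and 3531 normalised counts with vehicle and 3342 and 3341 with EC359. Again the groups were apart, with a log2 fold change of -0.12 ± 0.041 (SE) and an adjusted p of 0.134 from edgeR. COX6C was separated as well, at -0.13.

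COX4I1 is the common form of subunit 4, one of the subunits assembled first around the catalytic core. Its normalised counts were 9935 and 10201 with vehicle and 9405 and 9708 with EC359. These libraries did not overlap, and the log2 fold change was -0.075 ± 0.034 (SE), adjusted p = 0.227 from edgeR. Its partner in early assembly, COX5A, was the only gene of the 39 with both EC359 libraries above both vehicle libraries. COX5A had 2232 and 2233 normalised counts with vehicle and 2336 and 2376 with EC359, and the log2 fold change of 0.078 ± 0.044 (SE) had an adjusted p of 0.336 from edgeR.

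The remaining genes of complex IV overlapped between treatments. COX8A had 4416 and 5064 normalised counts with vehicle and 4298 and 4470 with EC359, a log2 fold change of -0.11 ± 0.057 (SE) with an adjusted p of 0.282 from edgeR. This value rests on the vehicle libraries, with -0.21 without vehicle replicate 1 and -0.013 without vehicle replicate 2. COX6A1 had 1197 and 1223 normalised counts with vehicle and 1201 and 1205 with EC359, and its log2 fold change of -0.0085 ± 0.055 (SE) had an adjusted p of 0.954. The sign of a change this close to 0 depended on the scaling, and it was 0.015 with total counts. COX5B was at -0.0012. For COX6A1, 59.8% of the 50-base windows of its transcript occurred elsewhere in the genome, and reads with several alignments are not in the deposited counts.

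Tissue-restricted partners of these genes were at or near 0. COX4I2, the lung and hypoxia form of subunit 4, had 0 counts in all libraries, as did the muscle forms COX6A2 and COX7A1. A count of 0 allows up to 3 counts, which is 0.117 CPM in each vehicle library and 0.0946 and 0.100 CPM in the EC359 libraries. The testis forms COX6B2, COX7B2 and COX8C had at most 4, 1 and 2 counts in any library. The symbols ATP5L2 and ATP5J2-PTCD1 had at most 1 and 0 counts. These are the 8 symbols that met the name rule and had too few counts.

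**Figure D3:**
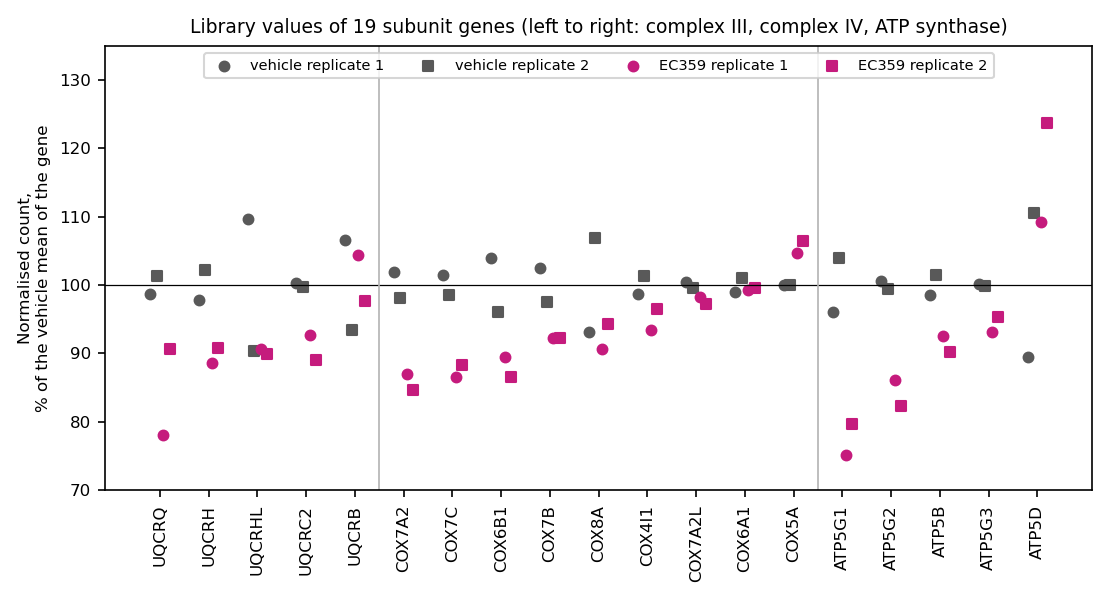
Normalised count of 19 genes (x axis) in each library as a percent of the vehicle mean of that gene (y axis), vehicle in grey and EC359 in magenta, with complex III, complex IV and ATP synthase from left to right. The lowest single point is EC359 replicate 1 of ATP5G1, COX5A and ATP5D lie above 100% in both EC359 libraries, and ATP5E is left out because its counts were too low for this scale.

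In complex III, 9 of 10 genes had fitted changes below 0, with a median log2 fold change of -0.095, and none passed an adjusted p of 0.05 from edgeR. With unadjusted p under 0.05, 3 lay lower and 0 higher, against 11.0% and 10.7% of all genes tested. DESeq2, the exact test and voom called 0. Both EC359 libraries were below both vehicle libraries in 7 genes, against 25.4% of all genes tested. UQCRQ, a small subunit that sits on cytochrome b, had 2167 and 2225 normalised counts with vehicle and 1716 and 1993 with EC359. Both EC359 values were below vehicle, but they lay further apart than the vehicle values. The log2 fold change was -0.25 ± 0.066 (SE), adjusted p = 0.0660 from edgeR, and it was -0.14 without EC359 replicate 1.

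UQCRC2, a core protein on the matrix side, had 4472 and 4443 normalised counts with vehicle and 4134 and 3969 with EC359. The treatments were apart, with a log2 fold change of -0.14 ± 0.038 (SE) and an adjusted p of 0.0700 from edgeR. The other core protein, UQCRC1, was at -0.081. The electron carriers CYC1 (cytochrome c1) and UQCRFS1 were at -0.078 and -0.11, and each was separated between treatments.

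UQCRH, the hinge protein between cytochrome c1 and cytochrome c, had 3053 and 3189 normalised counts with vehicle and 2768 and 2834 with EC359. These did not overlap, and the log2 fold change was -0.16 ± 0.043 (SE), adjusted p = 0.0676 from edgeR. Its copy UQCRHL had 2470 and 2033 normalised counts with vehicle and 2040 and 2024 with EC359, which overlapped. UQCRHL had a log2 fold change of -0.15 ± 0.076 (SE) and an adjusted p of 0.288 from edgeR. The log2 fold change was -0.0018 without vehicle replicate 1 and -0.28 without vehicle replicate 2. The transcripts share sequence, with 53.7% of the 50-base windows of UQCRHL and 33.4% of those of UQCRH found in transcripts of other genes, so the split of reads between them is uncertain.

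UQCRB, the ubiquinone-binding protein, was the single gene of complex III above 0. It had 5296 and 4637 normalised counts with vehicle and 5182 and 4852 with EC359. The vehicle libraries enclosed both EC359 libraries, and the log2 fold change was 0.015 ± 0.058 (SE), adjusted p = 0.918 from edgeR. UQCR10 and UQCR11, the smallest accessory subunits, were at -0.064 and -0.074.

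Subunits that carry other names were also examined. NDUFA4 (complex IV), USMG5 and C14orf2 (ATP synthase) and CYCS, the electron carrier cytochrome c, all had fitted changes below 0, with a median log2 fold change of -0.050 and no gene called. The lowest adjusted p of these 4 was 0.268, for USMG5 at -0.10 ± 0.049 (SE). Of 36 tested complex I subunit genes, 25 were below 0 and 11 above, none was called by the quasi-likelihood test, and the median was -0.048. In that complex 8 genes had an unadjusted p under 0.05 on the lower side and 1 on the higher side, against 11.0% and 10.7% of all genes tested. NDUFS5 had the smallest adjusted p there, 0.0174 (edgeR), with 3013 and 2882 normalised counts with vehicle and 2500 and 2526 with EC359 and a log2 fold change of -0.23 ± 0.043 (SE). Complex II, succinate dehydrogenase, was split evenly, with 2 genes on each side of 0 and a median of -0.0081. SDHC had the lowest adjusted p of that complex, 0.345, at -0.10 ± 0.057 (SE). The difference between these complexes was not tested.

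Factors that build the complexes showed a mixed picture. Of 27 complex IV assembly genes, 18 were below 0 and 9 above, with a median log2 fold change of -0.082 and no gene called. At an unadjusted p under 0.05, 6 lay lower and 2 higher, against 11.0% and 10.7% of all genes tested. SURF1, an assembly factor of complex IV, had 462 and 466 normalised counts with vehicle and 382 and 342 with EC359. These were separated, at -0.36 ± 0.087 (SE), adjusted p = 0.0476 from edgeR. Complex III assembly genes were at a median of 0.0039 over 5 genes, and the lowest adjusted p was 0.336, for C11orf83 (UQCC3) at 0.14 ± 0.076 (SE).

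For ATP synthase, 3 of 4 assembly and inhibitor genes were above 0, with a median of 0.064 and none called. At an unadjusted p under 0.05, 2 lay higher, against 10.7% of all genes tested. TMEM70, which helps place subunit c into the enzyme, had 1560 and 1676 normalised counts with vehicle and 1832 and 1918 with EC359. Both EC359 libraries were higher, with a log2 fold change of 0.21 ± 0.055 (SE) and an adjusted p of 0.0572 from edgeR. The carriers and pores that exchange ATP, ADP and phosphate were below 0 in 6 of 6 tested genes, with a median of -0.10 and none called. All 6 were separated, against 25.4% of all genes tested on this side. At an unadjusted p under 0.05, 2 lay lower, against 11.0% of all genes tested. SLC25A5, an ADP/ATP carrier, was at -0.16 ± 0.032 (SE), adjusted p = 0.0251 from edgeR. SLC25A6 had 0 counts in all libraries and was not tested. Reads with several alignments are not in the deposited counts, so this 0 does not show that the gene was silent.

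Regulators of nuclear genes for mitochondria were below 0 in 8 of 13 cases, with a median of -0.062 and none called. At an unadjusted p under 0.05, 2 lay lower and 1 higher, near the 11.0% and 10.7% of all genes tested. NRF1 here is nuclear respiratory factor 1, a transcription factor for respiratory chain genes. It had 1008 and 952 normalised counts with vehicle and 823 and 768 with EC359. Its libraries were separated, and the log2 fold change was -0.30 ± 0.067 (SE), adjusted p = 0.0336 from edgeR.

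Among genes tied to the hypoxic control of electron transport, 3 of 7 tested genes fell and none rose. Over all genes tested, 0.795% fell and 0.299% rose. The list was chosen with earlier results of these data known, so these shares are no test of it. The list median of -0.14 was the value of NDUFA4L2, a gene with few counts (SE 0.42, adjusted p = 0.891 from edgeR). The list median moved to -0.22 when at least 10 counts in every library were required and to -0.083 with voom. BNIP3, a mitophagy receptor, had 6130 and 5949 normalised counts with vehicle and 4287 and 4403 with EC359, a log2 fold change of -0.48 ± 0.036 (SE) with an adjusted p of 0.000418 from edgeR. PDK1, the kinase that holds back pyruvate dehydrogenase, changed by -0.35 ± 0.052 (SE), adjusted p = 0.00634. MXI1, a MYC antagonist, changed by -0.49 ± 0.080 (SE), adjusted p = 0.00938. In each of these 3 genes both EC359 libraries were below both vehicle libraries. Of the pathway lists with no gene called by the quasi-likelihood test, the exact test called 1 gene lower in each of complex IV assembly, exchange and regulators, 2 lower and 1 higher in complex I, and 0 in the others. Over all genes tested, the exact test called 2.62% lower and 1.85% higher. DESeq2 and voom called 0 in each of these pathway lists. With 1 library left out, the list medians ran from -0.091 to -0.022 for subunits with other names, from -0.029 to -0.0032 for complex II, from -0.052 to -0.041 for complex I, from -0.022 to 0.0078 for complex III assembly and from -0.083 to -0.011 for complex IV assembly. They ran from 0.019 to 0.16 for ATP synthase assembly, from -0.13 to -0.068 for exchange, from -0.10 to -0.026 for regulators and from -0.28 to -0.085 for hypoxic control. The extremes came without vehicle replicate 2 (-0.091) and 1 (-0.022) for subunits with other names, and without EC359 replicate 1 for complex IV assembly (-0.011) and regulators (-0.026). Those of hypoxic control came without vehicle replicate 1 (-0.28) and EC359 replicate 2 (-0.085), and those of ATP synthase assembly without EC359 replicate 2 (0.019) and vehicle replicate 2 (0.16).

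The promoters of these genes were read from RefSeq windows of 250 bases before to 50 after the start (GRCh38.p14). A window was found for 29 of the 39 genes, and those without one were ATP5B, ATP5D, ATP5EP2, ATP5G3, ATP5J2, ATP5S, COX6C, CYC1, UQCRB and UQCRHL. Letters known from factors that act on respiratory genes were searched on both strands. The ETS letters CCGGAAG were in 12 of 29 windows (41.4%), against 10.7% of 27305 promoters and 19.9% of those of tested genes. The NRF1 letters GCGCATG were in 6 (20.7%, against 4.67% and 7.69%), and the YY1 letters AAGATGG were in 8 (27.6%, against 6.06% and 7.90%). The median log2 fold change of genes with and without each motif was -0.098 and -0.12 for ETS, -0.10 and -0.12 for NRF1, and -0.13 and -0.12 for YY1.

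The promoter of ATP5G1, the gene with the lowest adjusted p, held none of these letters but 4 copies of CCAAT, letters added to the search after the values were seen. CCAAT occurred at least once in 44.8% of the 29 windows and in 35.7% of all promoters, and at least 3 times in 2 of 29 (ATP5G1 and ATP5E) and in 3.42% of all promoters. The 150 bases before its start (chr17:48892637-48892786, plus strand, GRCh38.p14) are shown with 3 of these copies in capitals. For ATP5G2, 30 bases are shown around the NRF1 letters, which lie on the opposite strand in capitals (chr12:53676104-53676133, minus strand). For UQCRQ, 30 bases are shown around the ETS letters in capitals (chr5:132866577-132866606, plus strand), and for COX7C the 150 bases before its start with the YY1 letters of the opposite strand in capitals (chr5:86617791-86617940, plus strand). These genes had the lowest adjusted p in their complex or, for ATP5G2, in the c ring beside ATP5G1. A match of letters describes the sequence and does not show binding.
ATP5G1: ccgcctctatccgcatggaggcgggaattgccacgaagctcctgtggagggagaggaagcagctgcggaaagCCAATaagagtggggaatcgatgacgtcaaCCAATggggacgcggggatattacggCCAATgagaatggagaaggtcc
ATP5G2: cccgggtcacgCATGCGCtgagccttcctt
UQCRQ: aatggtatctcCCGGAAGttacctcacgac
COX7C: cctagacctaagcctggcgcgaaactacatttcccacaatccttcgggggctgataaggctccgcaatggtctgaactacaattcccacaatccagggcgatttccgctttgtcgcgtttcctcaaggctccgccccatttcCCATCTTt

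These genes share short transcripts. Their median transcript length was 678 bases, with 27 of 39 under 1000 bases, whereas the median of tested genes was 2404 bases. Over all 1599 tested genes with transcripts under 1000 bases, the median log2 fold change was -0.039 and 59.2% were below 0. The 27 short genes of the complexes had a median of -0.12, with 24 below 0. The 12 genes with longer transcripts had a median of -0.11. All 12 were below 0 and separated between treatments, against 25.4% of all genes tested on this side. These 12 include ATP5S and ATP5SL, which do not stand for subunits, and COX7A2L at -0.033. They also include ATP5E, the weakest measurement, by an annotated transcript of 1878 bases. With the trend of each library against length removed, the median of complex IV moved from -0.11 to -0.060 and that of all 39 genes to -0.088. The part of transcript length in the shift of the complexes was not tested beyond these values.

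**Figure D4:**
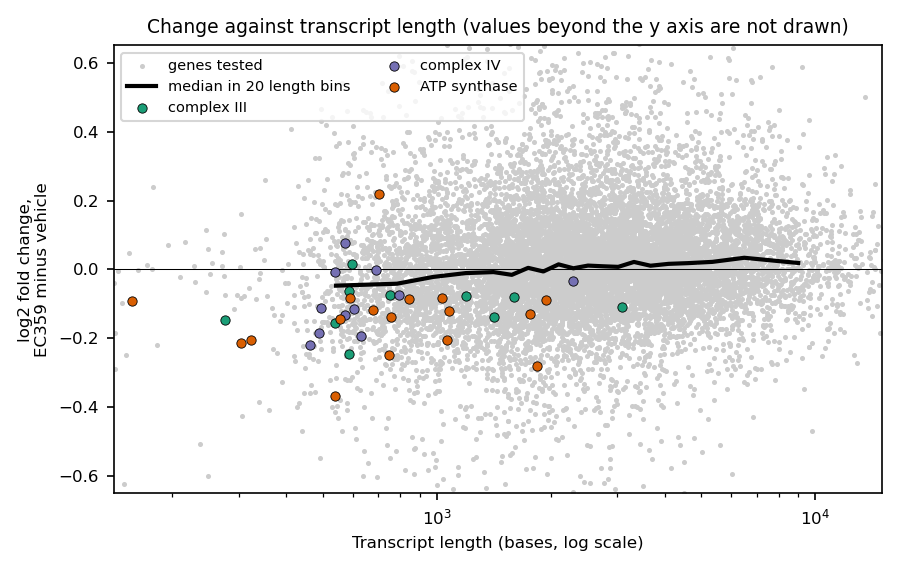
Log2 fold change with EC359 (y axis) against transcript length in bases (x axis, log scale) for genes tested (grey) and the genes of the 3 complexes (coloured), with the median in 20 length bins as a line. The line stands at -0.047 in the shortest bin, most coloured points lie below it, and values beyond the y axis, ATP5E among them, are not drawn.

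The direction of each complex held under other analyses of the same counts. Over 20 alternatives, the median log2 fold change ran from -0.13 to -0.071 in complex III, from -0.11 to -0.059 in complex IV and from -0.16 to -0.098 in ATP synthase. All alternatives use the same 4 libraries or 3 of them, so they are not independent of each other.

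**Figure D5:**
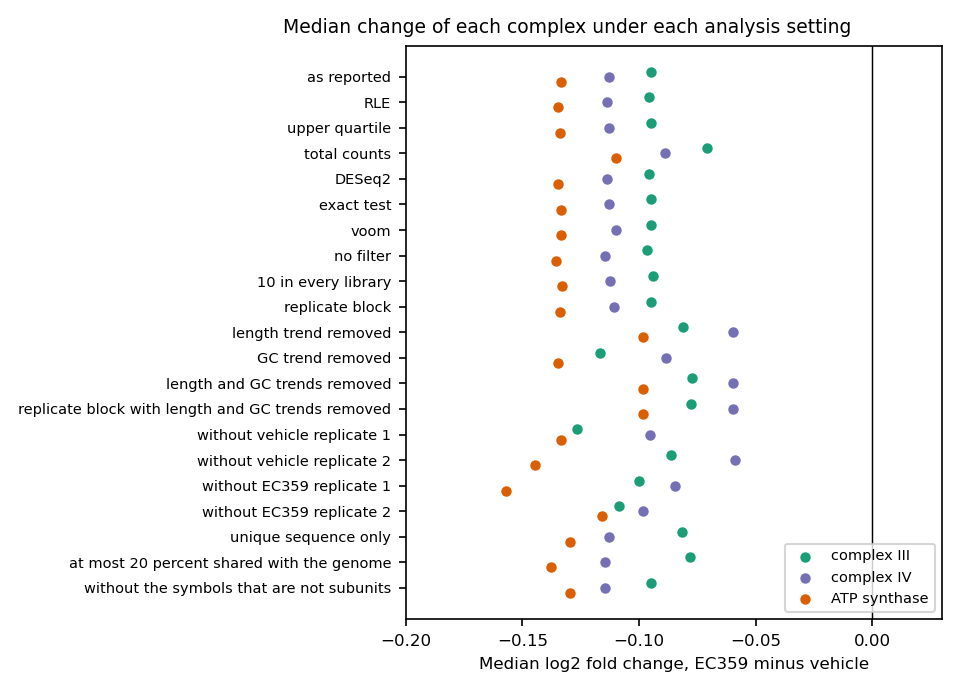
Median log2 fold change with EC359 (x axis) of complex III, complex IV and ATP synthase under each analysis setting (y axis). All points lie left of 0, and those of complex IV reach closest to it, at -0.059.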

How the data were processed

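Total RNA from ES2 cells was sequenced on an Illumina HiSeq 2000. Per the study's methods, reads were aligned by TopHat2 (2.0.8b) against the UCSC build hg19, and HTSeq assigned them to NCBI RefSeq genes. The files deposited by the authors hold 1 raw count per symbol, not normalised. CASAVA 1.8.2 also stands in the submitters' processing notes. The strand setting of HTSeq is not given in the sources used here, so overlapping genes on opposite strands cannot be told apart. Rows that name no gene were left out: reads on no gene made up 10.95% to 12.05% and reads that fit several genes 0.852% to 0.879%.

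Genes were kept by filterByExpr (minimum count 10, minimum total 15), scaled by TMM and tested by quasi-likelihood in edgeR 4.0.16 under R 4.3.3. Group was the only term, and Benjamini-Hochberg adjustment ran over 12706 genes. The SE was taken as log2 fold change over the root of F, and normalised counts refer to the mean effective library size. The biological coefficient of variation was 3.50% and the model had 8.28 prior degrees of freedom. Replicates differed by more than sampling noise (chi-square per degree of freedom 3.81 for vehicle and 2.70 for EC359). The study calls the libraries biological replicates. The scripts were tested on simulated data, where 45% of log2 changes of 0.3, 72.5% of 0.5 and 90% of 1 were recovered. At each size 200 genes were changed, and the false calls at an adjusted p under 0.01 were 5, 3 and 9 in the same order. Changes as small as the median of the 39 genes were not simulated.

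GENCODE models on GRCh37, matched for 21308 symbols, gave lengths and, with the GRCh37 genome, the shared 50-base windows. Promoters came from RefSeq (GRCh38.p14). Full values are given for the 4 genes of lowest adjusted p and the largest opposite change in each complex, the called genes, the isoform groups and the called or lowest-p gene of each list. Of the marker genes, 1 is not reported here. Members, lists and tests were chosen with earlier results of these data known. Alternatives were other scalings, filters and thresholds, edgeR's exact test, DESeq2 1.42.0 and voom of limma 3.58.1. Others were a replicate block, removal of length and GC trends, leaving out each library, and members with less shared sequence.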

Additional observations from a re-analysis of the deposited data

How the results depend on the processing

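With 2 libraries per treatment, single changes of the size seen in most of these genes did not pass the threshold. The number of genes called, 139 at an adjusted p under 0.01, was 230 with DESeq2 (170 lower), 568 with the exact test, 61 without a filter, 1199 with GC trends removed, 1208 with length and GC trends removed, 549 at an adjusted p of 0.05 and 1255 at an unadjusted p of 0.01. It was 0 to 467 when 1 library was left out. Of the genes of the 3 complexes, 2 fell as reported. This count was 1 with total counts, 5 with the exact test, 0 without a filter, 1 with length trends removed, 13 with GC trends removed, 9 with both removed, 5 at an adjusted p of 0.05 and 14 at an unadjusted p of 0.01, and it was 0 to 7 with 1 library left out. The count that rose, 0, was 1 (COX5A) with both trends removed and 0 to 1 with 1 library left out. The cause of these differences was not tested. The number with fitted changes below 0 was 33 to 37 of 39 in the fits run.

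Replicate numbers are shared by the treatments, but the labels do not say that they mark a batch, and the deviations of same-numbered libraries correlated at 0.112 with only 2 pairs. With a replicate block, 1539 genes were called, 16 of the 39 fell and 1 (ATP5D) rose. With the block and both trends removed, the numbers were 1917, 11 and 1 (COX5A).

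The median of all 39 genes moved from -0.12 to -0.092 with total counts, to -0.088 with length trends removed, to -0.078 with both trends removed and to -0.078 with the block as well, and it ran from -0.13 to -0.11 with 1 library left out. For complex III it was -0.071 with total counts, -0.12 with GC trends removed and -0.13 to -0.086 with 1 library left out. Complex IV had -0.089 with total counts, -0.060 with length, -0.088 with GC, -0.060 with both and -0.059 with block and both, and -0.098 to -0.059 with 1 library left out. ATP synthase had -0.11 with total counts, -0.098 with length, both, or block and both, and -0.16 to -0.12 with 1 library left out. Of the 39 genes, 5 changed sign in at least 1 alternative, and these were COX5B (in 9), COX6A1, UQCRB, UQCR10 (in 2, at most 0.0077) and ATP5EP2 (0.013 without vehicle replicate 1). UQCRB went to -0.0097 with GC trends removed, -0.080 without vehicle replicate 2 and -0.034 without EC359 replicate 1, within a range of -0.080 to 0.11 with 1 library left out. COX6A1 went to 0.015 with total counts, 0.043 with length, 0.016 with GC, 0.067 with both and with block and both, and 0.0043 without vehicle replicate 2, within a range of -0.025 to 0.0043 with 1 library left out. The medians were also limited to genes with less shared sequence, a choice added in part after seeing the data. One limit left out ATP5O and UQCRHL, and the other kept genes with at most 20% of windows elsewhere in the genome. Neither moved a median past the spread between replicates. Both kept genes with some shared sequence, the first among them COX6A1, with 47.1% of windows in other transcripts. The shares of the subunit c genes kept their direction with each library left out.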
